A study of Mus musculus with 2 samples.

Results

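The unfolded protein response and the folding machinery of the endoplasmic reticulum (ER) were described here through 30 genes, of 25815 genes with at least 1 count, taken by name from both libraries of a single-cell RNA sequencing study of mouse lymph nodes. Of these genes, 22 belong to the branches run by XBP1 and ATF6 (ER chaperones, disulfide isomerases, parts of the ER-associated degradation machinery, and Xbp1, Atf6 and Ern1 themselves) and 8 to the branch run by ATF4 (Atf4, Ddit3, Ddit4, Trib3, Asns, Chac1, Ppp1r15a and Sesn2). The tissue was the tumour-draining inguinal lymph node. The first library was made from 13 pooled nodes of wild-type mice (WT library) and the other from 9 pooled nodes of mice in which the autophagy gene Atg5 is deleted in lymphatic endothelial cells (KO-labelled library). In both, viable CD31+ Ter119- CD45- endothelial cells and viable CD45+ Ter119- CD31- immune cells were sorted and pooled before sequencing. The tumour, the Cre line behind the deletion, the strain and the age of the mice are not given in the sources used here.

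Unfolded proteins in the ER are sensed by 3 membrane proteins. IRE1, the product of Ern1, splices the Xbp1 messenger so that it encodes an active transcription factor. ATF6 is cut in the Golgi and its free part enters the nucleus. Together these factors raise chaperones and degradation genes. PERK phosphorylates the translation factor eIF2alpha, which lowers translation in general while that of Atf4 goes up, and ATF4 turns on genes of amino acid supply, redox defence and, under lasting stress, cell death. Other eIF2alpha kinases feed into ATF4 as well, so its targets also answer to amino acid shortage and viral RNA. Plasma cells and other secreting cells are known for a large XBP1-driven ER. Counts of 3' tags do not separate spliced from unspliced Xbp1 messengers, and levels of Atf4 messenger do not measure ATF4 protein.

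The WT library held 23649554 unique molecular identifiers (UMIs, each standing for 1 captured molecule) on 119938 barcodes, of which 4082 were called as cells, and the KO-labelled library held 23089918 UMIs on 111135 barcodes with 4387 called. A total of 15 called barcodes occurred in both libraries. With 1 library per genotype the data carry no replicate check and no test. Levels are UMIs summed over the cells of a class, per 1000000 UMIs of that class without mitochondrially encoded genes (CPM); ratios are KO-labelled over WT with exact 95% intervals, which cover counting error alone. The sexes of the cells also differed, male cells being 71.3% of the sexed lymphatic endothelial cells (LECs) on the WT side and 51.1% on the KO-labelled side, with 80.5% and 48.2% in B cells, so that genotype, mouse, sex and library cannot be told apart.

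Cell classes were rebuilt from marker genes and their names rest on that. There were 693 WT and 212 KO-labelled LECs, among them 366 and 54 ceiling-like, 140 and 6 floor-like and 36 and 83 medullary or paracortical-like cells. Blood endothelial cells (BECs) comprised 66 and 39 cells like those of high endothelial venules (HEVs, the vessels through which lymphocytes enter the node) and 581 and 471 others. The 6 LEC markers summed to 6540.5 CPM (WT) and 10333 CPM (KO-labelled) in lymphatic endothelial cells, against 121 and 205 CPM in BECs other than HEV-like cells. HEV markers, 5 genes with Glycam1 and Chst4 among them, reached 12922 and 18175 CPM in HEV-like cells against 1737 and 1291 CPM in other BECs. B cells numbered 1029 and 1330, a further B cell cluster led by Egr2 and Egr3 324 and 239, and T cells 928 and 1499, made up of CD4, CD8 and regulatory T cells. Finer clustering (Leiden resolution 2) showed other cells under the name regulatory T cells. A cluster with Tcrg-C1 and Il17a among its leading genes held 18 WT and 21 KO-labelled cells. Another, with Pclaf and Top2a, held 19 and 29. Atg5 itself, the deleted gene, had 229 UMIs in WT LECs (41.7 CPM) and 70 in KO-labelled LECs (44.6 CPM), which gives 1.07 (0.806 to 1.40). Tags from the 3' end can remain when an inner exon is removed, so this value checks the label in neither direction.

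The promoters of 6 genes are shown because they carry the letters through which these branches are known to act, and because the results turn on several of them. Windows of 300 bases, from 250 before the start site to 50 after it, were taken from RefSeq (GRCm38.p6), which gave a window for 27 of the 30 genes (not for Atf6, Hyou1 and Manf). Each is written 5' to 3' on the strand of its gene, and capitals mark a motif match. Hspa5 (encoding BiP) lies at chr2:34771840-34772139 (plus strand), Hsp90b1 (GRP94) at chr10:86705395-86705694 (minus strand), Syvn1 (the ubiquitin ligase HRD1) at chr19:6046326-6046625 (plus strand) and Herpud1 at chr8:94386179-94386478 (plus strand). The remaining pair are targets of ATF4, Asns at chr6:7693160-7693459 (minus strand) and Trib3 at chr2:152344011-152344310 (minus strand).
Hspa5: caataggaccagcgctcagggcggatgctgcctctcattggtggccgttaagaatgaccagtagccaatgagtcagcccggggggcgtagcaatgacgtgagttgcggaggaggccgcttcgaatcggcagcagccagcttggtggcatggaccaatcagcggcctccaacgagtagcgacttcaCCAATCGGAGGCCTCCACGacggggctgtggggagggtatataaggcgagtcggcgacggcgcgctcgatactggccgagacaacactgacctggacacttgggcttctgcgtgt
Hsp90b1: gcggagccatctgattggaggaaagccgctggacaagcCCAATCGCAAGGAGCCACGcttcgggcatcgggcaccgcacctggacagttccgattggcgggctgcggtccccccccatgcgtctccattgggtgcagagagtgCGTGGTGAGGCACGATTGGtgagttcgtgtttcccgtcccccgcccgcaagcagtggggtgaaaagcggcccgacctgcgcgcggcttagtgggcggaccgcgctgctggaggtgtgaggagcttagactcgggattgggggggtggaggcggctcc
Syvn1: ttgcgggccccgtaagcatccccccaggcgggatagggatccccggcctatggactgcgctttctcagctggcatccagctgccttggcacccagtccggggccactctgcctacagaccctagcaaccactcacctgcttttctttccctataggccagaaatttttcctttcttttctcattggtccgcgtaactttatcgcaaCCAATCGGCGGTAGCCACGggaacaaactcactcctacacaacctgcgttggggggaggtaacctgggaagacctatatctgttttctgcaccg
Herpud1: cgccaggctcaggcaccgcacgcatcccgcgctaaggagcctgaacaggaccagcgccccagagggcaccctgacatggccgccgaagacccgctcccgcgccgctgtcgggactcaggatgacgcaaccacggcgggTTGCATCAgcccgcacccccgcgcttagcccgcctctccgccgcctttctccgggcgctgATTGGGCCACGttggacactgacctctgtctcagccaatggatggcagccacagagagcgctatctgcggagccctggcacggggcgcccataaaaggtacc
Asns: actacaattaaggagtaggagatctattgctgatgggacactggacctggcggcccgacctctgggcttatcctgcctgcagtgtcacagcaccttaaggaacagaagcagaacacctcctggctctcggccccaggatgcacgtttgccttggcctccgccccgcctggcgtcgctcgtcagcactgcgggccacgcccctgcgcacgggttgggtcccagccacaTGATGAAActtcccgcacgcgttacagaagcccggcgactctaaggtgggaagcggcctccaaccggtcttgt
Trib3: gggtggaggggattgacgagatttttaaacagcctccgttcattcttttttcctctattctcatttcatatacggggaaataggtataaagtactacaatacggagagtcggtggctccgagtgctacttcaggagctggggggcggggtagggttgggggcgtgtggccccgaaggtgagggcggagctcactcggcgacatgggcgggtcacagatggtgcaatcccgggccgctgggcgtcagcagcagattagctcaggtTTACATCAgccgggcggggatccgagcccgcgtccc

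In Hspa5, Hsp90b1 and Syvn1 the capitals are the ER stress response element (ERSE), CCAAT followed after 9 bases of any kind by CCACG, known as a site of ATF6 with NF-Y. They start 65 bases before the start site in Hspa5, 44 before it in Syvn1, and at 2 places in Hsp90b1. On both strands the element matched in 8 of the 19 XBP1/ATF6-type promoters (42.1%; Calr, Canx, Creld2, Dnajc3 and Pdia6 besides), in 0 of 8 ATF4-type promoters, and in 37 of 27025 promoters over the genome (0.137%). The shorter ERSE-II, ATTGG followed after 1 base of any kind by CCACG, matched in Herpud1 and Dnajb11 and in 12 promoters over the genome (0.0444%). The C/EBP-ATF response element (CARE), TGATGNAA, known as a site of ATF4 with C/EBP partners, matched in 3 of 8 ATF4-type promoters, Asns, Chac1 and Trib3 (37.5%), in Herpud1 alone of the 19 others, and in 1219 promoters over the genome (4.51%). Herpud1 thus holds an ERSE-II and a CARE match in 1 window. The core of the unfolded protein response element, TGACGTGG, matched in none of the 27 windows and in 193 over the genome (0.714%). None of these motifs matched in the windows of Xbp1, Ern1, Atf4, Ddit3, Ddit4, Ppp1r15a, Dnajb9 or the isomerases other than Pdia6. Matches of letters describe the windows and are not binding sites.

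**Figure D1:**
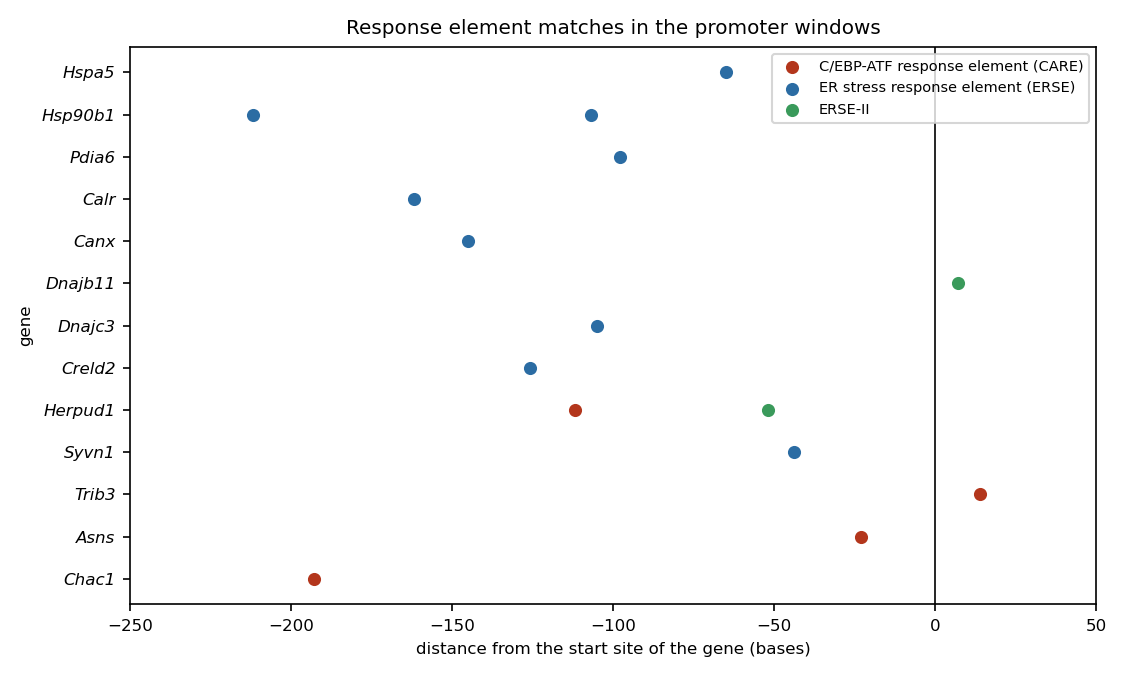
Motif matches in 300-base promoter windows of the genes that held any, by distance from the start site in bases (x axis; 0 is the start site) and gene (y axis), coloured by motif. ERSE matches lay between 212 and 44 bases before the start site, all in XBP1/ATF6-type genes, while the CARE matches were in Asns, Chac1, Trib3 and Herpud1.

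Levels were ordered over 9 classes, which were 5 of lymphocytes, HEV-like cells, other BECs, ceiling-like LECs and, as the last, medullary or paracortical-like LECs; floor-like LECs were left out of this order because the KO-labelled library has 6 of them. Hspa5, the main ER chaperone and the usual readout of the response, stood highest of the 9 in medullary or paracortical-like LECs, at 1334 CPM (WT) and 1490.2 CPM (KO-labelled). Other BECs and HEV-like cells, whose levels are given further down, came close to this, and the order among these classes was not tested. Hspa5 was lowest in CD8 T cells, at 806 and 840.4 CPM, so its range over the 9 stayed under 2-fold in both libraries. The WT floor-like LECs lay above all of these, at 1755 CPM. Other abundant chaperones ranged more widely over the 9 classes, Hsp90b1 from 477 to 1957 CPM and Calr from 445 to 1227 CPM in the WT library. Xbp1 spread over more than 10-fold in both, from 45.1 and 44.5 CPM in CD8 T cells to 524 and 912 CPM in HEV-like cells. Asns, the asparagine synthetase, had 67 (WT) and 73 (KO-labelled) UMIs in BECs other than HEV-like cells and 0 in B cells of either library.

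**Figure D2:**
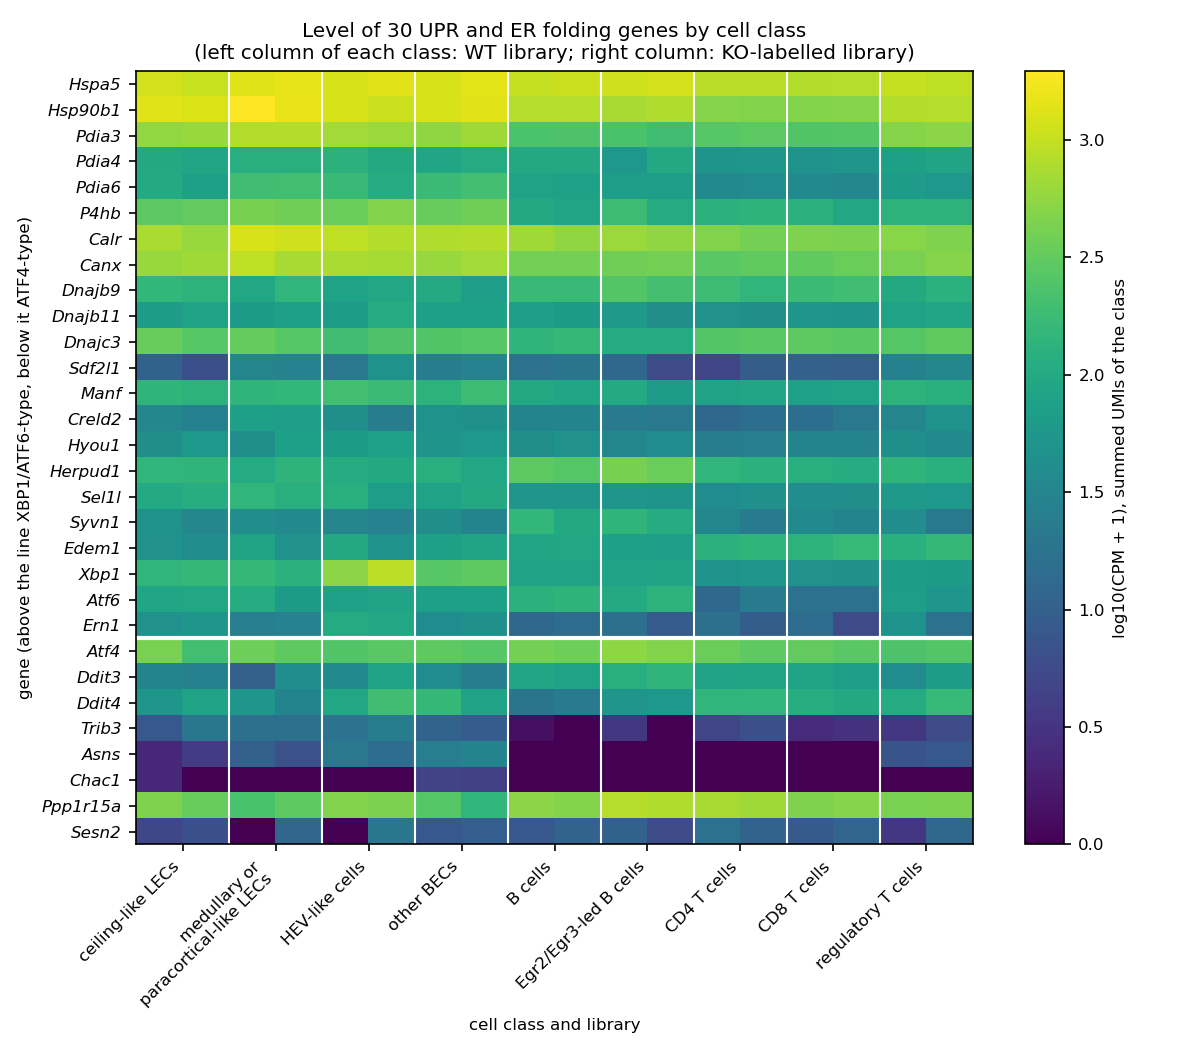
Level of the 30 genes as log10(CPM + 1) (colour) by gene (rows, XBP1/ATF6-type above the white line and ATF4-type below it) and cell class (pairs of columns, WT library left, KO-labelled right). Hspa5 and Hsp90b1 are bright in every class, Xbp1 is brightest in HEV-like cells in both libraries, and Asns, Trib3 and Chac1 are near 0 in lymphocytes.

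Of the 3 XBP1/ATF6-type regulators, Xbp1 followed a fixed order in both libraries: HEV-like cells, other BECs at 276 and 293 CPM, LECs at 156 and 127 CPM, B cells at 78.9 and 78.3 CPM, and T cells at 50.8 and 51.6 CPM. The intervals of neighbours in this order did not overlap, apart from those within lymphocytes: the Egr2/Egr3-led B cells, at 80.4 and 83.1 CPM, overlapped the other B cells, and regulatory T cells at 65.8 and 61.4 CPM lay between B and CD8 T cells. HEV-like cells exceeded other BECs 1.90-fold among WT and 3.11-fold among KO-labelled cells. Plasma cell markers, the sign of the cells best known for Xbp1, summed to 72.9 and 9.31 CPM in HEV-like cells with 2 of 6 genes detected in each library, against 139 and 143 CPM in other BECs. After thinning every cell to 2000 UMIs, Xbp1 was detected in 50.8% (37.9 to 63.6) of WT and 56.8% (39.5 to 72.9) of KO-labelled HEV-like cells, and in 35.5% and 37.8% of other BECs. Detection in CD8 T cells, the class with the lowest level, was 5.68% and 7.61%.

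Ern1, which encodes the sensor that splices Xbp1, was also highest of the 9 classes in HEV-like cells in both libraries, at 107 CPM (38 UMIs) and 93.1 CPM (20 UMIs). It exceeded other BECs 2.70- and 2.10-fold. Xbp1 and Ern1 were the 2 of 22 XBP1/ATF6-type genes at least 1.5-fold higher in HEV-like cells in both libraries, where 6.92% of all genes were, and 0 of 22 were lower, against 12.5% of all genes. Free RNA, read from barcodes with under 100 UMIs, held Ern1 at 142 CPM (WT) and 107 CPM (KO-labelled), which is above its level in every class shown, and its part in the low counts of Ern1 was not tested. Atf6, the third of these regulators, had its top level in B cells, 129.6 and 136 CPM, against 27.8 and 27.1 CPM in T cells.

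Among the chaperones, the medullary or paracortical-like LECs also held the highest levels among the 9 classes of Hsp90b1, the ER form of HSP90, at 1957 and 1521 CPM, and of Calr, Canx, Pdia3 and Creld2 in both libraries. WT floor-like LECs exceeded them in Hsp90b1, at 2215 CPM. Against ceiling-like LECs, 4 of the 22 genes were at least 1.5-fold higher in both libraries, where 7.84% of all genes were. These were Pdia6 (1.85 and 2.73), Calr (1.64 and 1.89), Sdf2l1 (3.26 and 5.26) and Creld2 (2.21 and 2.58), given as ratios in WT and KO-labelled cells: a disulfide isomerase, the calcium-binding lectin calreticulin, a partner of BiP's DNAJ helpers, and a secreted protein of the response. The ratios of Sdf2l1 rest on few UMIs in the ceiling-like LECs, which are given further down. Ern1 was the 1 gene lower, at 0.540 and 0.554, where 6.56% of all genes were. Immediate early genes, which mark handling stress as well as activation, moved with this contrast. At least 1.5-fold lower in the medullary or paracortical-like cells in both libraries were 13 of 19 measured. Interferon-stimulated genes moved the other way, 8 of 14 being at least 1.5-fold higher in both, with median log2 ratios of 1.11 (WT) and 2.09 (KO-labelled). The part of either was not tested. The 4 became 2 of 13 measured genes after thinning to 2000 UMIs and 1 of 19 in female cells.

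The degradation genes had no order in common. Syvn1, the ligase at the centre of ER-associated degradation, reached 149.8 and 100.2 CPM in B cells against 35.3 and 24.3 CPM in T cells and 45.6 and 31.2 CPM in LECs. Herpud1, which gathers the ligase complex at the ER membrane, stood at 301 and 263 CPM in B cells, and at 410.4 and 360.3 CPM in the Egr2/Egr3-led B cells. Sel1l, the partner of Syvn1, showed the reverse, at 50.7 and 54.4 CPM in B cells and 107 and 119 CPM in LECs. Edem1, a lectin that hands misfolded glycoproteins to degradation, peaked in CD8 T cells at 132 and 159 CPM. Between LECs and B cells, 8 of the 22 genes were at least 1.5-fold higher in LECs in both libraries, P4hb (3.11 and 3.92), Pdia3 (2.58 and 2.87) and Ern1 (4.31 and 3.33) among them, and 4 were lower, Herpud1, Syvn1, Edem1 and Atf6. Of all genes, 31.1% were higher and 24.1% lower in that contrast, so these shares are near the background.

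B cells exceeded T cells at least 1.5-fold in both libraries at 6 of 22 genes (13.8% of all genes), led by Atf6 (4.67 and 5.03) and Syvn1 (4.24 and 4.13), with Pdia4, Pdia6, Herpud1 and Xbp1 (1.55 and 1.52). At 2 genes they were lower (17.8% of all genes). At least 2 plasma cell markers were detected in 179 WT and 230 KO-labelled B cells, and the part of these cells in the contrast was not tested. Regulatory T cells exceeded CD4 T cells at 8 of 22 genes (14.0% of all genes), and none was lower (6.52%). Hsp90b1 was 1.66 and 1.80-fold, Pdia3 1.78 and 1.81-fold and Ern1 3.01 and 1.98-fold there, with Canx, Dnajb11, Sdf2l1, Creld2 and Atf6 beside them. Cycling genes moved with this contrast, at 2305 and 2131 CPM in regulatory T cells against 8.65 and 13.8 CPM in CD4 T cells, and their part was not tested. Nor was the part of the cells with Tcrg-C1 and Il17a that finer clustering showed under this name. The count was 5 of 20 measured genes with cells thinned to 2000 UMIs and 2 of 10 in female cells. Tip-like BECs, the leading cells of sprouting vessels, exceeded capillary-like BECs at 4 of 22 genes (6.63%), Hsp90b1, Pdia6, Manf and Hyou1, and 0 were lower (6.51%); with doublet calls kept the 4 became 0. LECs exceeded BECs as a whole at 1 of 22 (12.5%), Dnajb9 (1.66 and 1.82), a BiP partner that restrains IRE1, and were lower at Edem1 and Xbp1 (0.511 and 0.370; 13.1%).

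Ppp1r15a, Atf4 and Ddit3 were highest in the same B cell cluster in both libraries, and Ddit4 was not. Ppp1r15a, which encodes the phosphatase subunit GADD34 that reverses eIF2alpha phosphorylation, was highest in the Egr2/Egr3-led B cells at 853 and 804 CPM. That cluster held the highest Atf4 (532 and 471 CPM) and Ddit3, the gene of the cell-death factor CHOP (115 and 142 CPM). Against the other B cells 2 of 5 measured ATF4-type genes passed 1.5-fold in both libraries, Ddit4 (2.92 and 2.63), an inhibitor of mTORC1, and Ppp1r15a (1.65 and 1.67), where 1.83% of all genes did, and 0 of 22 XBP1/ATF6-type genes did in either direction (2.58% of all genes were lower). Ddit4 was among the variable genes that clustered all cells, so its difference is not independent of the clustering. Immediate early genes were higher in the Egr2/Egr3-led cluster too, at 23286 and 20585 CPM against 13913 and 13358 CPM. So were cytosolic heat shock genes, 9 of 9 at least 1.5-fold in both libraries with median log2 ratios of 1.11 (WT) and 1.07 (KO-labelled), and Hspa1a and Hspa1b stood among the leading genes of the cluster. The part of either was not tested. Ddit4 was instead highest in other BECs in the WT library, at 156 CPM, and in HEV-like cells in the KO-labelled one, at 191 CPM. HEV-like cells exceeded other BECs at Ppp1r15a, 1.77-fold and 3.03-fold, and at Trib3 (6 and 5 UMIs in HEV-like cells), 2 of 6 measured, where 6.92% of all genes were higher. Immediate early genes moved with them, 8 of 19 being at least 1.5-fold higher in both libraries with median log2 ratios of 0.51 (WT) and 1.32 (KO-labelled), and their part was not tested. Tip-like BECs lay below capillary-like ones at Ppp1r15a (0.316 and 0.349), Ddit4 (0.366 and 0.275) and Ddit3, 3 of 4 measured ATF4-type genes, where 6.51% of all genes were lower. With them 14 of 18 immediate early genes and 5 of 9 cytosolic heat shock genes were lower, and their part was not tested. Ppp1r15a, Ddit4 and Ddit3 were among the variable genes that clustered the BECs. At these genes the contrasts between BEC classes are therefore not independent of the clustering.

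**Figure D3:**
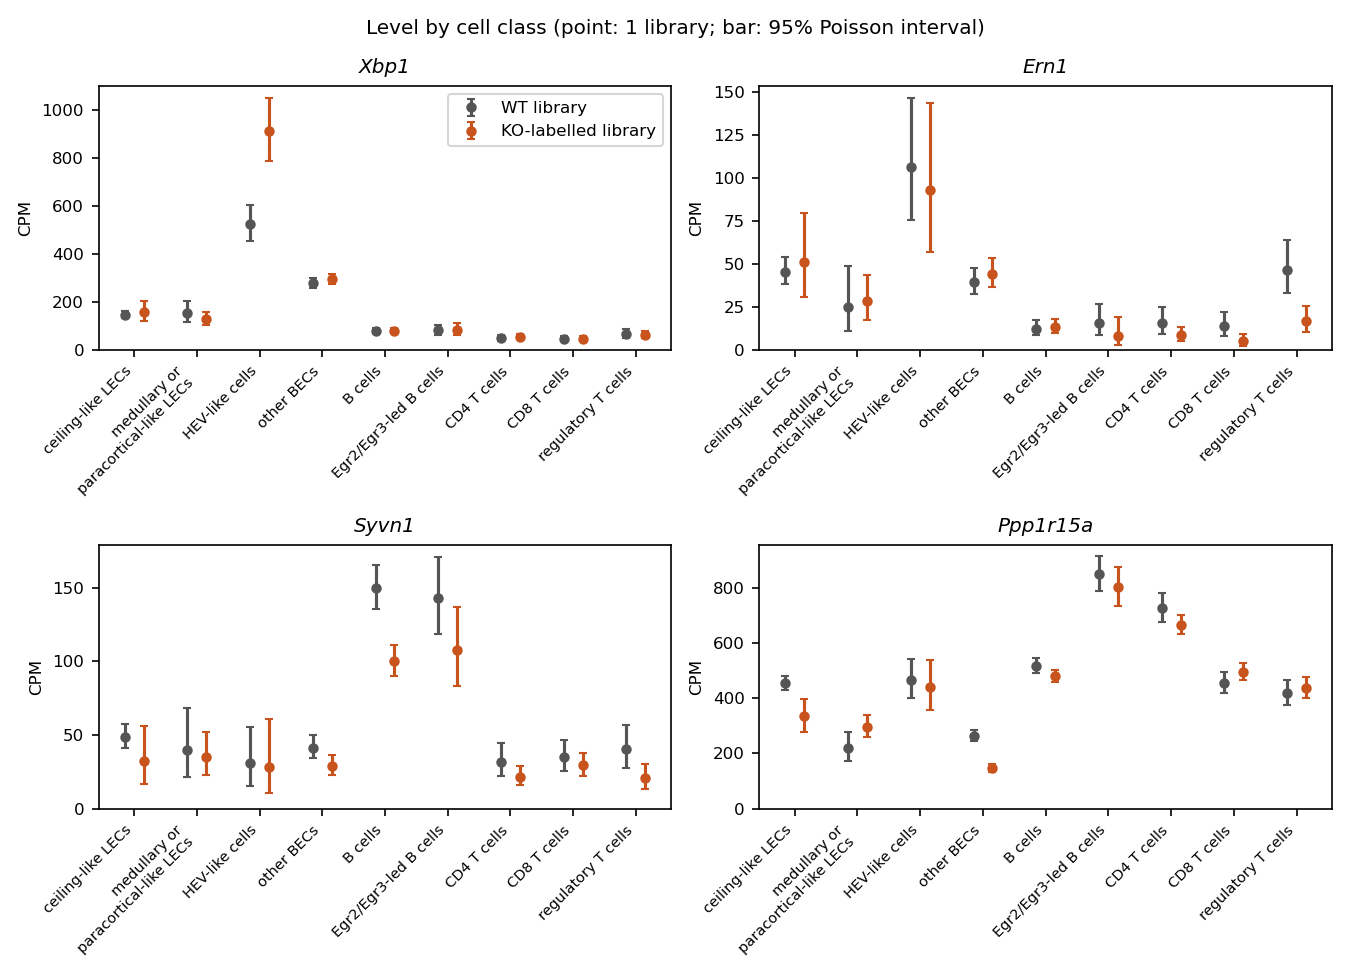
Level in CPM (y axis, from 0) of Xbp1, Ern1, Syvn1 and Ppp1r15a by cell class (x axis), with 1 point per library (grey WT, orange KO-labelled) and its 95% Poisson interval. Xbp1 and Ern1 peak in HEV-like cells, Syvn1 is highest in the B cell classes, and Ppp1r15a in the Egr2/Egr3-led B cells.

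The other ATF4-type genes, apart from Ddit4, were scarce. Chac1, which breaks down glutathione, had 24 UMIs over the 9 classes, floor-like LECs and both libraries, Trib3, a pseudokinase that dampens the response, 142, Asns 184 and Sesn2, a stress-induced inhibitor of mTORC1, 226. Asns was mainly detected in blood endothelium: other BECs held 24.9 CPM (67 UMIs) and 29.6 CPM (73 UMIs), LECs 2.55 and 5.10 CPM, T cells 5 and 9 UMIs, and B cells 0 UMIs among 1029 and 1330 cells. The ratio of LECs to BECs was 0.105 and 0.180 for Asns in the WT and KO-labelled libraries. Free RNA held Asns at 4.52 CPM (WT) and 2.57 CPM (KO-labelled), so the WT LECs did not exceed it.

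Levels of the members were compared over 22 pairs of class and library, as a description in which points share libraries and depth. Calr (Pearson's r = 0.89), Manf (0.80), Pdia6 (0.78) and Hsp90b1 (0.78) ran most like Hspa5, while Dnajb9 (-0.07), Herpud1 (0.16), Syvn1 (0.19) and Edem1 (-0.50) did not. Dnajb9 (0.81), Ddit3 (0.80) and Herpud1 (0.67) ran with Ppp1r15a instead. Outside the 30 genes, the 5 most like Hspa5 were Tlr4 (0.78), Zfand5 (0.77), Ccdc186 (0.76), Mfsd1 (0.76) and Hoxb4 (0.75), and the 5 most like Asns were Ndufa8 (0.93), Il1r1 (0.92), Nrp1 (0.91), B3gnt3 (0.91) and Dusp23 (0.91).

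Between the libraries, LECs differed little in their ER chaperones and more in Atf4 and Ppp1r15a. In all LECs, 0 of 22 XBP1/ATF6-type genes lay 1.5-fold above or below WT, where 11.4% of all genes were higher and 12.6% lower. Among genes with at least 100 UMIs, 7.17% were higher and 8.55% lower. The median log2 ratio of the 22 was -0.05, beside 0.04 over all genes. Their summed level was 7104 CPM (WT) and 6732 CPM (KO-labelled), a ratio of 0.948 (0.927 to 0.968). Hspa5 was at 1289 CPM (7071 UMIs) and 1198 CPM (1881 UMIs), a ratio of 0.930 (0.883 to 0.979). Hsp90b1 was at 1670.4 and 1412 CPM, a ratio of 0.845 (0.807 to 0.886). Calr, the next in UMIs, was at 886 and 872 CPM, a ratio of 0.984. These 3 abundant chaperones were thus within a few percent of WT or slightly lower, though Hspa5 turned to a log2 ratio of 0.057 in cells with at most 10% mitochondrial UMIs.

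Smaller differences in LECs ran both ways within the folding group. Creld2 (35.4 and 49.1 CPM) and Hyou1, a large BiP-related chaperone (41.6 and 55.4 CPM), were higher, with ratios of 1.39 (1.05 to 1.82) and 1.33 (1.03 to 1.71). Manf, a secreted ER survival factor, was at 162 and 124 CPM and Dnajb9 at 166 and 127 CPM, with ratios of 0.767 and 0.768. The isomerases Pdia3, Pdia4, Pdia6 and P4hb had ratios from 1.08 to 1.17. Of the degradation genes, Syvn1 was lower at 45.6 and 31.2 CPM (0.685, 0.494 to 0.934), while Sel1l (1.11) and Edem1 (1.03) stood slightly above 1. The regulators Xbp1 (0.814), Atf6 (0.807) and Ern1 (0.862) were all below 1, by less than 1.5-fold.

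Among ATF4-type genes in LECs, 3 of 7 measured were at least 1.5-fold higher and 1 lower, against the same 11.4% and 12.6% of all genes, and the 3 higher ones rest on few counts. Atf4 was at 376 CPM (2063 UMIs) in WT LECs and 244 CPM (383 UMIs) in KO-labelled LECs, a ratio of 0.649 (0.580 to 0.724). Ppp1r15a went from 458 CPM (2514 UMIs) to 312 CPM (489 UMIs), a ratio of 0.680 (0.616 to 0.749). Both were lower in the KO-labelled cells, and they set the summed level of the group, 936 and 681 CPM, a ratio of 0.728 (0.681 to 0.777), whose direction is opposite to that of the median log2 ratio, 0.23. Trib3 was higher at 8.57 CPM (47 UMIs) and 18.5 CPM (29 UMIs), a ratio of 2.16 (1.31 to 3.50). Asns had 14 and 8 UMIs and Sesn2 25 and 13, with intervals that include 1, and Chac1 had 7 and 0. Ddit4 (1.17) and Ddit3 (0.996) had intervals that include 1.

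The makeup of the LECs moved with these values. Immediate early genes, 20 that mark handling stress as well as activation, summed to 20861 CPM in WT and 9582 CPM in KO-labelled LECs, and 17 of 20 were at least 1.5-fold lower. In ceiling-like LECs alone the sums were 26324 and 16074 CPM, and Atf4 was at 430.3 CPM (1279 UMIs) and 198 CPM (74 UMIs), a ratio of 0.461 (0.360 to 0.583). Within its sub-clusters the KO-labelled level of Atf4 was the lower in each that could be compared. It was 405 against 126 CPM in ceiling sub-cluster 0, 261 against 223 CPM in sub-cluster 2, and 457 against 190 CPM in sub-cluster 6. These sub-clusters hold 10, 39 and 5 KO-labelled cells, which share the 74 UMIs. Sub-cluster 2, with most of these cells, differed least, and the differences were not tested. Ppp1r15a, at 457 and 335 CPM in all ceiling-like LECs (0.734, 0.606 to 0.882), was not lower within the same 3 sub-clusters. There it stood at 359 against 555 CPM, 188 against 207 CPM and 618 against 635 CPM. WT cells filled sub-clusters that KO-labelled cells nearly or wholly lacked, such as sub-cluster 5 with 90 and 0 cells, where Ppp1r15a was at 574 and Atf4 at 594 CPM. With the sub-clusters that have at least 10 cells in each library alone, the log2 ratio in ceiling-like LECs was 0.20 for Ppp1r15a and -0.67 for Atf4. Ppp1r15a was among the variable genes that clustered the LECs, so its levels by sub-cluster are not independent of that clustering.

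**Figure D4:**
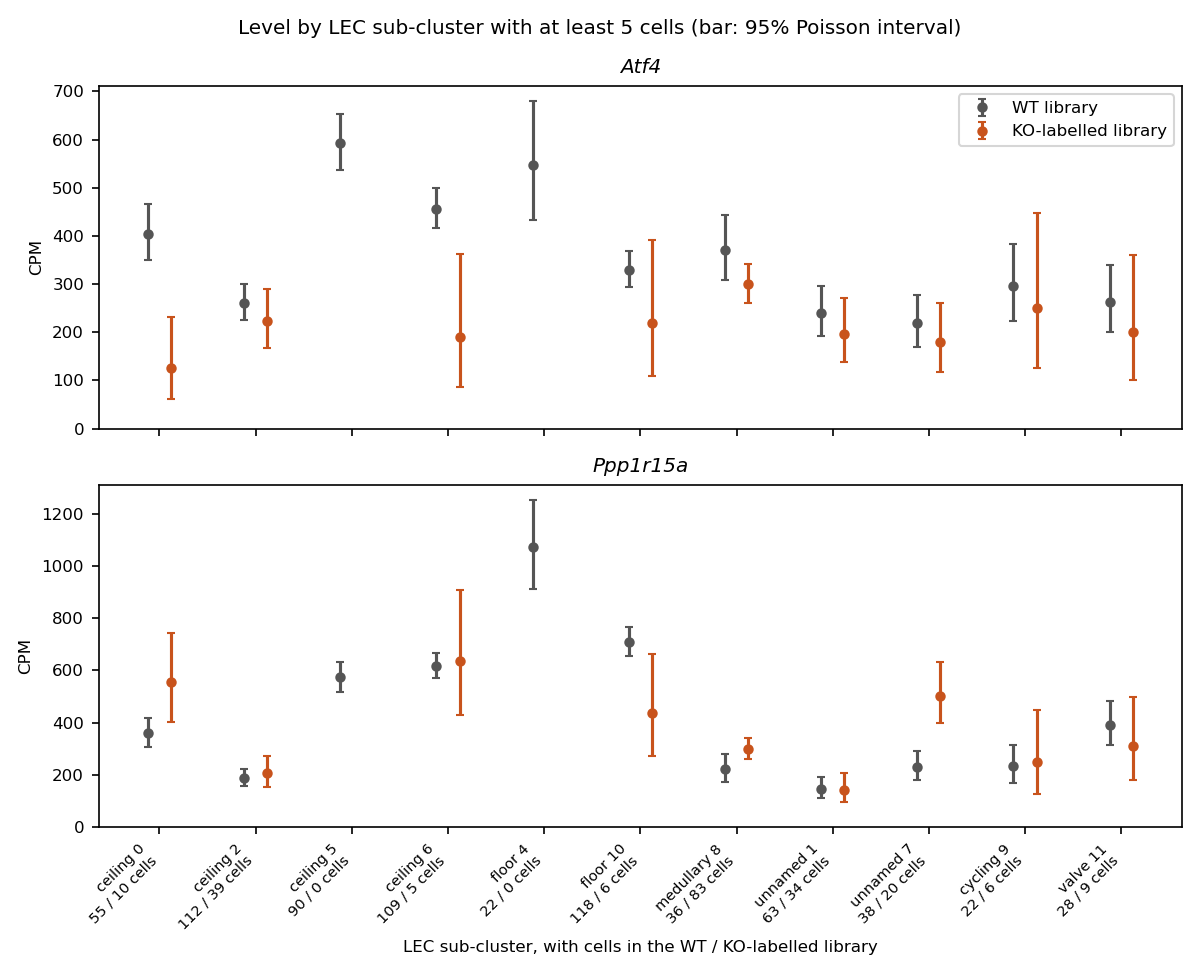
Level in CPM (y axis) of Atf4 and Ppp1r15a in LEC sub-clusters with at least 5 cells (x axis, with cells in the WT and KO-labelled libraries), 1 point per library with its 95% Poisson interval. The KO-labelled point of Atf4 is the lower in all 3 ceiling sub-clusters that hold both libraries, while Ppp1r15a is the same or higher there. The Atf4 points lie closest in sub-cluster 2, which has 39 KO-labelled cells, against 10 and 5 in the others.

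In ceiling-like LECs 2 of 22 XBP1/ATF6-type genes were at least 1.5-fold lower and 0 higher (16.3% and 14.7% of all genes), Syvn1 with 145 and 12 UMIs and Sdf2l1 with 28 and 2. Hspa5 was at 1154 and 1029 CPM (0.892, 0.800 to 0.991), Hsp90b1 at 1364 and 1308 CPM (0.959), and Calr at 749.9 and 603 CPM (0.804, 0.698 to 0.923). The median log2 ratio over the group was -0.08, and its summed level had a ratio of 0.952 (0.911 to 0.995). Of 5 measured ATF4-type genes, Trib3 (21 and 7 UMIs) was past 1.5-fold upward and Atf4 downward.

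Medullary or paracortical-like LECs, the niche with more KO-labelled than WT cells, had close immediate early sums, 7269 and 7706 CPM. There 2 of 22 XBP1/ATF6-type genes were at least 1.5-fold higher and 2 lower, against 13.8% and 12.9% of all genes. Dnajb9 was higher at 92.0 CPM (30 UMIs) and 144 CPM (102 UMIs), 1.56 (1.03 to 2.44), though its log2 ratio was 0.15 when cells called as doublets were kept. Hyou1 (14 and 50 UMIs) was the other higher gene, and Atf6 (35 and 43 UMIs; 0.565, 0.353 to 0.910) and Edem1 (27 and 32 UMIs; 0.545, 0.317 to 0.946) were lower. Hspa5 was at 1334 and 1490.2 CPM (1.12, 0.998 to 1.252), Hsp90b1 at 1957 and 1521 CPM (0.777, 0.704 to 0.859) and Calr at 1227 and 1137 CPM (0.927). Of 4 measured ATF4-type genes, Ddit3 was higher with 3 and 28 UMIs (1.33 to 22.1) and Ddit4 lower with 17 and 21 UMIs (0.286 to 1.15). Ppp1r15a was at 221 and 298 CPM (1.35, 1.03 to 1.79), with a log2 ratio of -0.10 in male cells, and Atf4 was at 371 and 299 CPM (0.806, 0.642 to 1.02). Differences between the niches were not tested. Sesn2 (0 and 8 UMIs), Trib3 (5 and 11), Asns (3 and 4) and Chac1 (0 and 0) were under 20 UMIs.

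The 6 KO-labelled floor-like LECs held 231 UMIs of the XBP1/ATF6-type genes in all. Of 21 measured genes, 14 were lower and 2 higher past 1.5-fold, where 21.7% and 26.9% of all genes were, with a median log2 ratio of -0.87 beside 0.07 over all genes. Hspa5 was at 1755 CPM (1911 UMIs) and 774 CPM (39 UMIs), Hsp90b1 at 2215 and 1072 CPM and Calr at 1223 and 516 CPM. Dnajb9 had 307 and 1 UMIs and Pdia6 136 and 0, while Sel1l (118 and 9 UMIs) was among the higher genes. Of the ATF4-type genes all 3 measured were lower past 1.5-fold, Ppp1r15a at 758 and 437 CPM and Atf4 at 358 and 218 CPM among them. With 6 cells in 1 library these values describe those cells. In the remaining LECs, 151 and 69 cells of valve-like, cycling and unnamed sub-clusters, Manf was lower (170 and 35 UMIs; 0.517, 0.349 to 0.748) and Ddit4 higher (71 and 48 UMIs; 1.70, 1.15 to 2.48) past 1.5-fold, where 14.7% and 12% of all genes were.

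In HEV-like cells the member with the most UMIs past 1.5-fold was Xbp1 itself, while the abundant chaperones had ratios near 1. Xbp1 was at 524 CPM (452 to 605; 187 UMIs) for WT and 912 CPM (789 to 1049; 196 UMIs) for KO-labelled cells, with a ratio of 1.74 (1.42 to 2.14). The cell richest in Xbp1 held 5.88% of its UMIs for WT and 9.69% for KO-labelled. Across all 20 measured XBP1/ATF6-type genes 2 were at least 1.5-fold higher, Xbp1 and Dnajb11 (23 and 23 UMIs), and 4 lower, Edem1 (34 and 10 UMIs), Sel1l (41 and 15), Pdia6 (59 and 23) and Creld2 (15 and 5), where 13.2% and 17.0% of all genes were; the last 4 and Dnajb11 had intervals that include 1. Hspa5 was at 1236 and 1378 CPM (1.11, 0.958 to 1.29), Hsp90b1 at 1242 and 1075 CPM (0.866, 0.735 to 1.02) and Calr at 945 and 819 CPM (0.867). P4hb, the isomerase that also serves collagen hydroxylation, was at 345 and 470.1 CPM (1.36, 1.04 to 1.79). The summed level of the group had a ratio of 1.02 (0.959 to 1.09).

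The Xbp1 difference was no general shift of BECs, where 276 and 293 CPM gave a ratio of 1.06 (0.958 to 1.18) outside HEV-like cells. Among those BECs it appeared in capillary-like cells, at 275 CPM (192 UMIs) and 470.4 CPM (131 UMIs), a ratio of 1.71 (1.36 to 2.15), in both sub-clusters (297 and 566 CPM, 238 and 362 CPM), but its log2 ratio there was 0.27 when cells called as doublets were kept. In HEV-like cells the log2 ratio, 0.80, was 0.55 in male and 1.09 in female cells. These values rest on 41 WT and 15 KO-labelled male cells, and on 7 WT and 19 KO-labelled female cells. The HEV marker sum given above was also higher in the KO-labelled cells of this small class, and its part in the Xbp1 difference was not tested.

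Of the ATF4-type genes in HEV-like cells, 2 of 4 measured were higher and 0 lower past 1.5-fold, where 13.2% and 17.0% of all genes were. The median log2 ratio of the 4, 0.60, became -0.96 in male and -0.84 in female cells alone, with 3 measured in each. Of the female cells 7 were WT and 19 KO-labelled. Ddit4 was at 92.5 CPM (33 UMIs) and 191 CPM (41 UMIs), but 1 cell held 46.3% of the KO-labelled UMIs. Ddit3 had 13 and 17 UMIs (0.993 to 4.86). Ppp1r15a (468 and 442 CPM, 0.944) and Atf4 (252 and 279 CPM, 1.11) differed by less than their counting error. Sdf2l1 (7 and 10 UMIs), Syvn1 (11 and 6), Trib3 (6 and 5), Asns (7 and 3), Sesn2 (0 and 4) and Chac1 (0 and 0) were too few for a ratio.

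In other BECs the 2 groups differed in opposite directions. Of 22 XBP1/ATF6-type genes, 18 were higher in the KO-labelled library, by less than 1.5-fold each, and 4 were lower. Of all genes, 47.5% were higher. The median log2 ratio was 0.15 beside -0.02 over all genes. Past 1.5-fold 0 of the 22 were higher and 1 lower, where 6.48% and 10.7% of all genes were. The summed level was 6422 and 7097 CPM, a ratio of 1.11 (1.08 to 1.13). Hspa5 was at 1245 CPM (3344 UMIs) and 1426 CPM (3513 UMIs), 1.15 (1.09 to 1.20). Hsp90b1 was at 1252 and 1379 CPM (1.10, 1.05 to 1.16), and Calr at 791 and 828 CPM (1.05, 0.985 to 1.11). Manf was the furthest up, at 135 and 181 CPM (1.34, 1.17 to 1.55). Dnajb9 was the 1 gene past 1.5-fold, lower at 103 CPM (276 UMIs) and 68.2 CPM (168 UMIs), 0.664 (0.545 to 0.807), and Herpud1 (0.793) and Syvn1 (0.698) were lower with it. By sub-class, Dnajb9 (108 and 24 UMIs) and Herpud1 (97 and 21 UMIs) were lower past 1.5-fold in capillary-like cells, with ratios of 0.558 (0.343 to 0.874) and 0.543 (0.322 to 0.877), Sel1l was higher in tip-like cells (39 and 77 UMIs; 1.56, 1.05 to 2.36) and Manf in cycling cells (53 and 95 UMIs; 1.59, 1.12 to 2.26). Of all genes, 17.4% were lower and 13.9% higher past 1.5-fold in capillary-like cells, 13.4% and 11.5% in tip-like cells, and 16.1% and 15% in cycling cells. In female cells alone the median was -0.061, and the log2 ratio was 0.093 for Dnajb9, -0.16 for Hspa5 and -0.74 for Manf.

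The ATF4-type genes of other BECs were lower in the KO-labelled library: 3 of 7 measured were past 1.5-fold downward and 0 upward, where 10.7% and 6.48% of all genes were. The summed level was 799.9 and 573 CPM, a ratio of 0.716 (0.669 to 0.766). Ddit4 was at 156 CPM (418 UMIs) and 80.8 CPM (199 UMIs), 0.519 (0.436 to 0.616). Ppp1r15a was at 265 CPM (712 UMIs) and 146 CPM (359 UMIs), 0.550 (0.483 to 0.625). Ddit3 was at 39.1 and 23.5 CPM (0.602, 0.429 to 0.838). Atf4 itself was at 294 and 274 CPM (0.929, 0.837 to 1.03), against 0.649 in LECs with the difference not tested, and Asns (1.19, 0.841 to 1.68), Trib3 and Sesn2 had intervals that include 1. Chac1 had 10 and 8 UMIs. Immediate early genes were lower in the same cells, 12877 and 8635 CPM, with 20 of 20 lower and 11 past 1.5-fold, where 47.5% of all genes were higher. Makeup moved as well. A sub-cluster led by the interferon-induced genes Cxcl9, Cxcl10 and Ciita had 9 WT and 63 KO-labelled cells. Another, led by Cebpb, Per2 and Hilpda, had 29 WT and 2 KO-labelled cells, and its WT cells held Ddit4 at 512, Ppp1r15a at 670.5 and Dnajb9 at 298 CPM. Both sub-clusters were left out in a setting with only sub-clusters of at least 10 cells in each library. There Ddit4, Ppp1r15a, Ddit3 and Dnajb9 stayed lower in the KO-labelled library. The part of makeup in the size of the differences is not given here, and that of the immediate early genes was not tested.

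**Figure D5:**
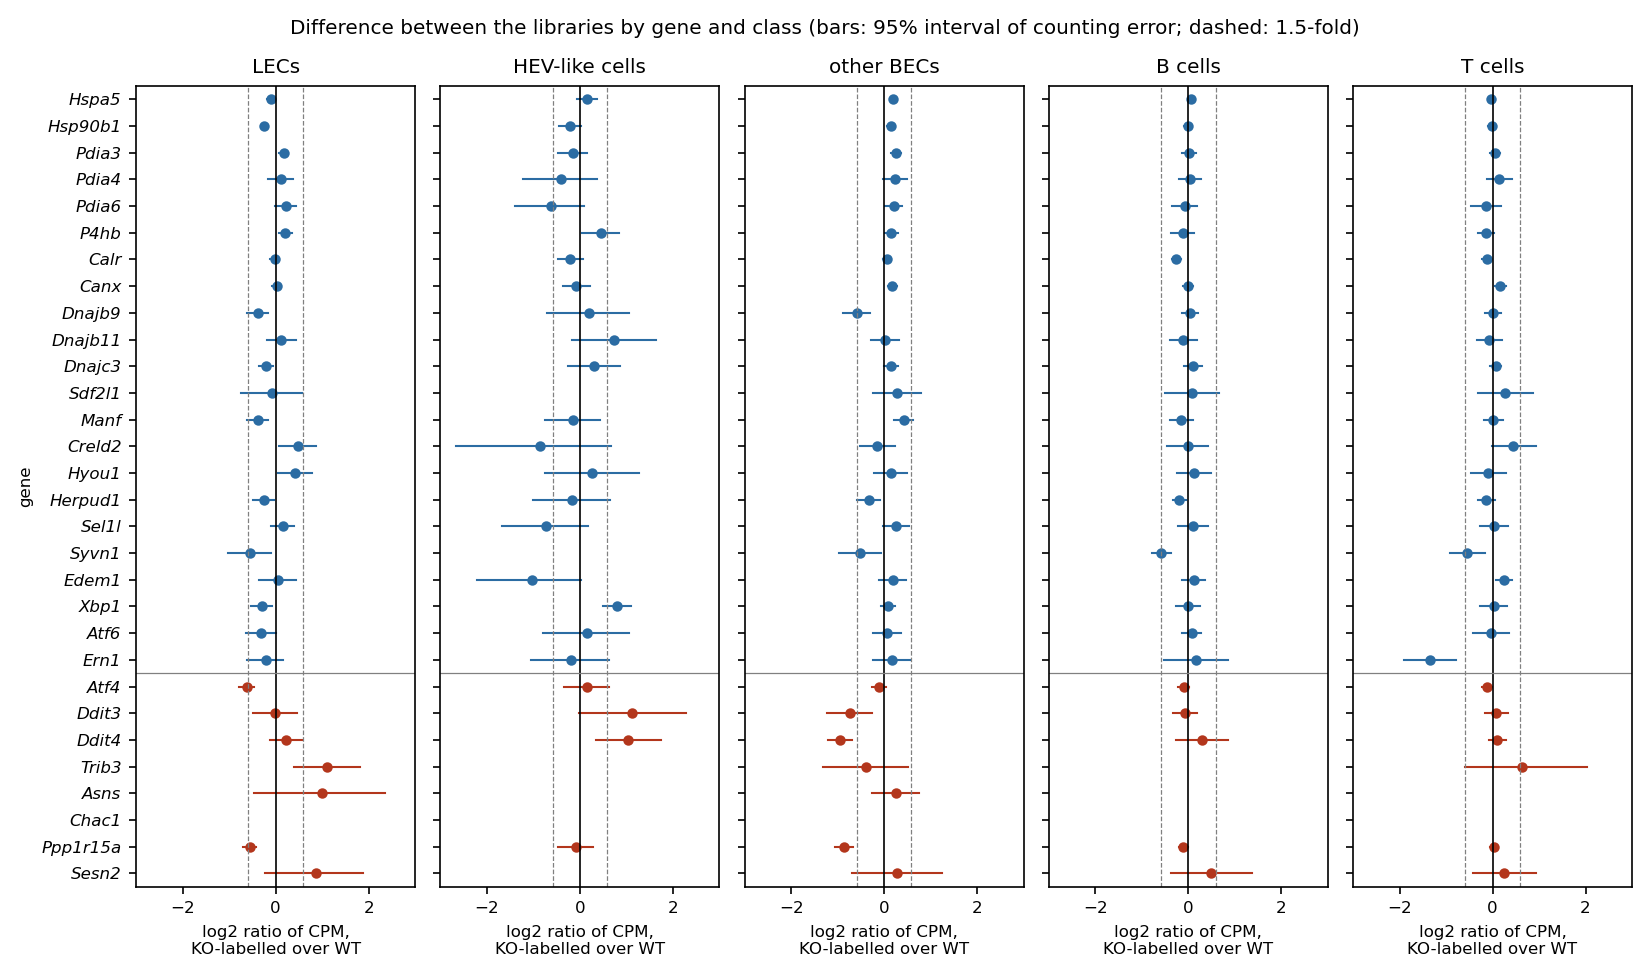
Log2 ratio of CPM, KO-labelled over WT (x axis), for each gene with at least 20 UMIs (y axis; blue XBP1/ATF6-type, red ATF4-type) in 5 classes, with 95% intervals of counting error and dashed lines at 1.5-fold. Chaperones lie within the dashed lines except Dnajb9 in other BECs and Dnajb11, Pdia6 and Creld2 in HEV-like cells, Xbp1 stands out in HEV-like cells at 0.80, Ddit4 and Ppp1r15a lie left in other BECs, and Syvn1 lies left in LECs, other BECs, B and T cells.

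In lymphocytes, whose Atg5 the study did not target, the 3 chaperones with most UMIs differed by less than 1.5-fold between the libraries in B and T cells. In B cells 0 of 22 XBP1/ATF6-type and 0 of 5 ATF4-type genes passed 1.5-fold, where 5.59% of all genes were higher and 6.44% lower. Hspa5 was at 1015 and 1058 CPM (1.04), Hsp90b1 at 848 and 840.0 CPM (0.991) and Calr at 666 and 557 CPM (0.836, 0.784 to 0.893). The largest difference in B cells was in Syvn1, at 149.8 CPM (399 UMIs) and 100.2 CPM (352 UMIs), 0.669 (0.578 to 0.774). Ppp1r15a was at 518 and 481 CPM, Atf4 at 397 and 370.5 CPM, and Ddit3 at 84.9 and 80.6 CPM, with ratios from 0.929 to 0.950. Trib3 had 1 and 0 UMIs and Chac1 none. In the Egr2/Egr3-led cluster Pdia4 was higher (47 and 58 UMIs; 1.68, 1.12 to 2.52) and P4hb (151 and 64; 0.576, 0.423 to 0.776) and Manf (85 and 40; 0.639, 0.428 to 0.941) lower, 1 and 2 of 20 measured XBP1/ATF6-type genes, where 9.10% and 10.6% of all genes were.

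In T cells Ern1 was the exception. It was at 22.7 CPM (72 UMIs) for WT and 8.97 CPM (48 UMIs) for KO-labelled cells, with a ratio of 0.395 (0.268 to 0.577), and was the 1 of 22 XBP1/ATF6-type genes past 1.5-fold, where 5.44% of all genes were higher and 6.60% lower. Within T cells the ratio was 0.356 (0.147 to 0.813) in CD8, 0.543 (0.258 to 1.15) in CD4 and 0.357 (0.199 to 0.624) in regulatory T cells, the latter with 38 and 21 UMIs. After thinning every cell to 2000 UMIs, Ern1 was detected in 7.95% (4.17 to 13.5) of WT and 2.89% (1.17 to 5.87) of KO-labelled regulatory T cells, but in 1.35% and 1.30% of CD8 and in 1.83% and 1.33% of CD4 T cells, where the intervals of the libraries overlap. Free RNA carried Ern1 in the same direction, 142 and 107 CPM. With the mean free RNA per barcode subtracted for each cell, Ern1 stayed lower in the KO-labelled T cells and regulatory T cells. The part of free RNA beyond that was not tested. Hspa5 (889 and 874 CPM), Hsp90b1 (565 and 564 CPM) and Calr (467 and 427 CPM) had ratios of 0.983, 0.998 and 0.916. The ATF4-type genes Ppp1r15a (536 and 548 CPM), Atf4 (307 and 282 CPM) and Ddit4 (121 and 130.0 CPM) had ratios from 0.920 to 1.07; Trib3, with 8 and 21 UMIs, was the 1 of 6 measured past 1.5-fold.

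In regulatory T cells 4 of 4 measured ATF4-type genes were higher in the KO-labelled library, where 51.2% of all genes were. Past 1.5-fold 2 of the 4 were higher, where 9.75% of all genes were. Ddit4 was at 105 CPM (86 UMIs) and 158 CPM (201 UMIs), 1.51 (1.17 to 1.97), and Ddit3 at 37.8 and 63.7 CPM (31 and 81 UMIs; 1.69, 1.10 to 2.64). In CD4 T cells Ddit4 was at 148 and 146 CPM and in CD8 T cells at 110.0 and 96.8 CPM. Differences between these classes were not tested, and in female cells alone the log2 ratio of Ddit4 in regulatory T cells was -0.45. Among the 22 XBP1/ATF6-type genes, Creld2 was higher and Ern1 and Syvn1 (33 and 26 UMIs; 0.509, 0.292 to 0.877) lower, where 9.39% of all genes were lower.

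Syvn1 was lower in the KO-labelled library in each of the 4 large populations, with ratios of 0.685 in LECs, 0.698 in BECs other than HEV-like cells, 0.669 in B cells and 0.688 in T cells. Of 5477 genes measured in LECs, all BECs, B cells and T cells, 39 (0.712%) were at or below a ratio of 0.75 in all 4, Syvn1 being the 1 member among 25 that could be measured. The 39 included the ribosomal protein genes Rpl28, Rpl8, Rps18, Rps19 and Rpsa. In barcodes below the cell threshold, which hold free RNA, Syvn1 had 94 and 71 UMIs, a ratio of 0.789 (0.571 to 1.08). Genotype and library cannot be told apart as the source of a difference that spans these populations.

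The rest of the secretory pathway was read from lists of related genes. In LECs, 16 of 19 ER-to-Golgi transport genes and 15 of 22 translocon and signal peptidase genes were slightly higher in the KO-labelled library, with median log2 ratios of 0.15 and 0.13, where 54.2% of all genes were higher. In each list 1 gene passed 1.5-fold upward and 0 downward, against 11.4% and 12.6% of all genes. Sec61b, a subunit of the protein-conducting channel, was at 100.6 and 159.9 CPM (552 and 251 UMIs), a ratio of 1.59 (1.36 to 1.85), and Ssr2, of the associated TRAP complex, had a ratio of 1.43 (1.23 to 1.66). Sec61b stood further apart among the medullary or paracortical-like cells, at 2.21 (1.49 to 3.37). Of 15 other degradation genes 0 passed 1.5-fold, and of 21 other folding enzymes 2 were higher, Prdx4 with a ratio of 1.67 (1.29 to 2.14) among them, and 1 lower, Fkbp2, with 0.382 (0.231 to 0.601).

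The kinases above ATF4 and its other targets split in LECs. Among 7 genes of the eIF2alpha kinases and the PERK pathway, Eif2ak2 (PKR, the interferon-induced kinase that senses double-stranded RNA), with 821 and 392 UMIs and a ratio of 1.67 (1.48 to 1.88), and Eif2ak3 (PERK), with 153 and 67 UMIs and a ratio of 1.53 (1.13 to 2.05), were past 1.5-fold upward. Interferon-stimulated genes moved with Eif2ak2, 12 of 14 being past 1.5-fold upward with a median log2 ratio of 1.20; in ceiling-like LECs, where their median was 0.18, Eif2ak2 had a ratio of 1.54 (1.19 to 1.97). Of 26 other ATF4 target genes 5 were higher and 5 lower past 1.5-fold, with a median of -0.01, against 11.4% and 12.6% of all genes. Atf3, a stress factor that also stands on the immediate early list, was at 469.7 and 93.7 CPM, a ratio of 0.199 (0.168 to 0.236). In ceiling-like LECs Gdf15, a stress cytokine, had 316 and 7 UMIs, a ratio of 0.176 (0.0704 to 0.368), while Vldlr, a lipoprotein receptor, had 89 and 46 UMIs, a ratio of 4.12 (2.82 to 5.94). Cytosolic heat shock genes were lower in LECs, 8 of 9 with 3 past 1.5-fold, where 54.2% of all genes were higher.

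In other BECs, 3 of 22 other ATF4 targets were higher and 5 lower past 1.5-fold, with a median log2 ratio of 0.06, where 6.48% and 10.7% of all genes were. Wars, a tRNA synthetase that interferon also induces, had 108 and 245 UMIs, a ratio of 2.47 (1.96 to 3.13); the part of the sub-cluster led by Cxcl9 in it was not tested. Cebpb, a partner of ATF4, had 127 and 37 UMIs, a ratio of 0.318 (0.214 to 0.461). Eif2ak3 was higher there as in LECs, with 61 and 92 UMIs and a ratio of 1.64 (1.18 to 2.31). HEV-like cells had 2 of 7 kinase and PERK pathway genes and 2 of 19 translocon genes past 1.5-fold upward, Spcs2 of the signal peptidase with a ratio of 1.54 (1.03 to 2.30) among the latter, where 13.2% of all genes were higher. In T cells 16 of 20 other ATF4 targets were lower, with a median of -0.24, where 51.0% of all genes were higher. Past 1.5-fold 2 of the 20 were lower, Atf3 with a ratio of 0.547 (0.379 to 0.789) among them, where 6.60% of all genes were. In B cells 1 of 20 was higher and 0 lower past 1.5-fold, where 5.59% and 6.44% of all genes were.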

How the data were processed

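Whole-number UMI counts per barcode and gene were deposited by the authors without normalization, made with the BD Rhapsody WTA Analysis Pipeline 1.11 on mm10, intronic reads not excluded, per the file headers; the error-corrected molecules were used. Nodes were pooled, so each genotype is 1 library and p-values were not computed. Barcodes were called as cells at the bend of the cumulative UMI curve (4082 and 4387), kept with at least 200 genes and at most 25% mitochondrial UMIs, cleared of 26 and 32 Scrublet doublets, and clustered (scanpy 1.11.5, 2000 variable genes, 30 components, Leiden resolution 1, without integration). Of the 30 members, 1 was among the variable genes for all cells (Ddit4), 3 for LECs (Asns, Ppp1r15a and Sesn2) and 3 for BECs (Ddit3, Ddit4 and Ppp1r15a). Classes were named from 29 marker lists. UMIs were summed per class and library. CPM has exact Poisson intervals and ratios exact conditional binomial intervals (95%, scipy 1.17.1), and the code was tested on simulated data. A member needed 20 UMIs over both libraries for a ratio; a count of 0 was set to 3. Past 1.5-fold was the size used for counts. Values are named for members with at least 100 UMIs past that fold and for the 3 members of each group with most UMIs; of other pathway genes, at most 2 per list and class with at least 100 UMIs. Likeness used log2(CPM + 5) in pairs with at least 50 cells. Members, lists and rules were chosen with earlier results of these data known.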

Additional observations from a re-analysis of the deposited data

Results flagged for a closer look

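Dnajb9 moved in opposite directions in the libraries of different classes: its ratio of KO-labelled to WT was 1.56 in medullary or paracortical-like LECs and 0.664 in other BECs, with intervals of counting error on opposite sides of 1. The first, a log2 ratio of 0.65, fell to 0.15 with doublet calls kept, and the second, -0.59, turned to 0.093 in female cells. Ddit3 did so with a ratio of 1.69 in regulatory T cells and 0.602 in other BECs. Ddit4 had a ratio of 1.51 in regulatory T cells and 0.519 in other BECs, and its log2 ratio in regulatory T cells turned to -0.45 in female cells. In each case the difference between the classes was not tested, since 1 library stands for each genotype.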

How the results depend on the processing

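Of the group medians and counts under all alternatives, 244 values stayed near the reported one and 15 moved. For a median, this meant between the median lower and the median upper bound of its members' counting intervals. That span is not an interval of the median itself, so staying in it does not measure the error of the median. For counts it meant within 1.5 times. Of single members, 325 stayed within their counting interval, 34 moved and 8 reversed. The settings on sub-clusters with at least 10 cells, on weighted niches, on barcodes called in both libraries and on all contrasts between classes were chosen after seeing the data. In female cells the ATF4-type median was -0.84 in HEV-like cells, -0.24 in T cells and 0.87 in medullary or paracortical-like LECs, and the XBP1/ATF6-type median -0.061 in other BECs; in male cells the ATF4-type median in HEV-like cells was -0.96. Over 5 classes, 10 of 29 ATF4-type values passed 1.5-fold and 3 passed 2-fold, and 8 of 108 XBP1/ATF6-type values passed 1.5-fold, 21 passed a fold of 5 to 4 and 2 passed 2-fold. Past 1.5-fold, 11.4% of all genes were higher and 12.6% lower in LECs, and 13.2% and 17.0% in HEV-like cells. The shares were 6.48% and 10.7% in other BECs, 5.59% and 6.44% in B cells, and 5.44% and 6.60% in T cells. Among genes with at least 100 UMIs these shares were 7.17% and 8.55% in LECs, and 5.79% and 7.77% in HEV-like cells. They were 3.16% and 5.17% in other BECs, 1.42% and 2.37% in B cells, and 1.39% and 2.66% in T cells. No share of all genes was computed for the other folds. Between classes, the number at least 1.5-fold higher became 1 in female cells for HEV-like cells over other BECs; 2 after thinning and 1 in female cells for medullary over ceiling-like LECs; 5 after thinning and 2 in female cells for regulatory over CD4 T cells; and 1 after thinning and 0 with doublet calls kept for tip-like over capillary-like BECs. Reversed log2 ratios were Ddit4 in HEV-like cells at -0.96 and Ppp1r15a in medullary or paracortical-like LECs at -0.10 (male cells), Ddit4 in regulatory T cells at -0.45, Dnajb9 at 0.093, Hspa5 at -0.16 and Manf at -0.74 in other BECs (female cells), Hspa5 in LECs at 0.057 (at most 10% mitochondrial UMIs) and Ppp1r15a in ceiling-like LECs at 0.20 (sub-clusters with at least 10 cells in each library); the cause was not tested. Xbp1 in HEV-like cells kept its side of 1.5-fold except at 0.55 in male cells. The mean over LEC niches with at least 50 cells in each library was not run, because 1 class was left, and floor-like LECs gave no value in female cells. No paired analysis was possible because each group has 1 library. Depth limits the scarce ATF4-type genes: Chac1 had 24 UMIs over the ordered classes and floor-like LECs.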
